A study of Mus musculus with 2 samples.

Results

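The clusters of replication-dependent histone genes were examined on the map of open chromatin of lymphoma T6. Their sites were those that overlapped, by at least 1 base, any of 3 windows of the mm9 genome. These windows were positions 21780000 to 22150000 of chromosome 13 (Hist1 window 1), positions 23500000 to 23730000 of the same chromosome (Hist1 window 2) and positions 96020000 to 96120000 of chromosome 3 (Hist2 window). They held 113 of the 53593 sites in the list, with 46 in Hist1 window 1, 43 in Hist1 window 2 and 24 in the Hist2 window. The windows were set by position, with earlier results of these data known.

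T6 is a lymphoma of the Eμ-myc mouse, in which the immunoglobulin heavy chain enhancer drives the Myc oncogene in B cells. Its genotype was Arf-/- Trp53+/+ on a strain given as C57/Bl6. The cells, labelled as B cells from lymph nodes, were untreated and unpurified, so cells other than tumour cells may have contributed. The series has 2 libraries of this tumour, DNaseI and input, and only the site list of the DNaseI library was analysed here. The labelled cell type was not checked against marker genes, because no mm9 gene positions were used. A site is a stretch in which DNaseI, an enzyme that cuts exposed DNA, left many ends. The list gives positions and no read counts, so that depth is unknown. With 1 library there was no replicate and no test between groups. The 95% intervals below (Poisson for counts, Clopper-Pearson for shares, order statistics for medians) take in counting error alone, and sites close together may not vary independently.

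Replication-dependent histone genes encode the core histones H2A, H2B, H3 and H4, around which DNA is wound, and the linker histone H1, which binds between nucleosomes. They are transcribed mainly in S phase, when new DNA must be packaged, and their short transcripts have no introns and end in a stem-loop in place of a poly(A) tail. In cycling cells the clusters gather in a nuclear compartment, the histone locus body, with the coactivator NPAT. Many genes for H2A and H2B lie head to head and are transcribed in opposite directions from a common promoter region.

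By the gene order that RefSeq gives for another build of the mouse genome (GRCm38.p6), the clusters hold 65 Hist1 and Hist2 genes, of which 1, H2ac14, is listed as a pseudogene. They comprised 6 H1, 18 H2A, 17 H2B, 12 H3 and 12 H4 genes. RefSeq served for names and order alone, since its coordinates are not those of mm9. Which of the 65 genes lie inside each mm9 window was therefore not checked, and no site was tied to a gene. In gene order the Hist1 genes formed 3 runs, parted wherever a Vmn1r (vomeronasal receptor) or Slc17a gene lay between consecutive histone genes. Other genes, tRNA genes among them, did not end a run. The first, from H2bc13 to H2bc11, held 24 genes, and the second, from H4c8 to H1f1, held 29. H2bc1 and H2ac1, which carry the old names Th2b and Th2a of testis histones, stood apart as the third. The Hist2 run, from H2ac21 to H2bc18, held 10 genes between Bola1 and Fcgr1.

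The runs also differed in what lay among the histone genes. In the first Hist1 run, H4bc24, which despite its symbol is the H2B gene Hist1h2br, and H2ac12 were neighbours among histone genes but had 31 tRNA genes between them, with Zfp184, Pom121l2 and the thymic protease gene Prss16. The second Hist1 run held no tRNA gene and 1 other protein-coding gene, Hfe, a regulator of iron uptake. Between these runs the table lists 147 genes, of which 75 are vomeronasal receptor genes or pseudogenes of the Vmn1r family and 46 are tRNA genes. Genes of the Vmn1r or Slc17a family had to lie there, since the rule parted the runs at them.

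The promoters of the histone genes are shown for what the classes share and where they differ; whether a DNaseI site lies at any of them was not checked. The 5 printed here, 1 for each class, belong to the first gene of the class in gene order. Each is given as the 250 bases before the start, 5′ to 3′ on the gene's own strand, from RefSeq (GRCm38.p6). Capitals mark a match on either strand to the TATA box (TATAAA), the NF-Y element (CCAAT), the octamer of H2B genes (ATTTGCAT), the H1 box (AAACACA), a stretch of an H4 promoter element (GGTCCG) or the E2F-type sequences TTTCGCGC and TTTGGCGC. In that build they lie upstream of H1f5 at chr13:21780626-21780875 (minus strand), of H2ac13 at chr13:21716162-21716411 (plus), of H2bc13 at chr13:21716184-21716433 (minus), of H3c10 at chr13:21717378-21717627 (plus) and of H4c11 at chr13:21734784-21735033 (plus). These positions cannot be set against the mm9 sites.
H1f5: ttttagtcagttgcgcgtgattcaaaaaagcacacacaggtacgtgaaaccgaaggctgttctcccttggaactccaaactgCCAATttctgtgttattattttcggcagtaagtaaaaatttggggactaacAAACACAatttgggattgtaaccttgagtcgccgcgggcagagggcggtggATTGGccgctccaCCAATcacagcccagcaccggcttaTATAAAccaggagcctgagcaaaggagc
H2ac13: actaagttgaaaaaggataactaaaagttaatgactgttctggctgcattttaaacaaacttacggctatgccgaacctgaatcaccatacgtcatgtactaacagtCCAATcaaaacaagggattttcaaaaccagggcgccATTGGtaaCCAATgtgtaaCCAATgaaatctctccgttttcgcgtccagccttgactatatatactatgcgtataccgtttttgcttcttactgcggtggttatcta
H2bc13: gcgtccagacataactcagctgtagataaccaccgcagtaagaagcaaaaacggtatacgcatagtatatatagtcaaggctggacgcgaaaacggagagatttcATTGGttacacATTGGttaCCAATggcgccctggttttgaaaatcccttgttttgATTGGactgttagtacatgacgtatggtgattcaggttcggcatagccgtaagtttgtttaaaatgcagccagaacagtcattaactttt
H3c10: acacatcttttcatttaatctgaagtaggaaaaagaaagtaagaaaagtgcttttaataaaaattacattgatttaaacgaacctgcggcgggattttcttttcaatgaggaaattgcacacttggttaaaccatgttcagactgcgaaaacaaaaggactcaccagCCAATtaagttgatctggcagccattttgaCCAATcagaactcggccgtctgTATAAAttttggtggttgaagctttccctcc
H4c11: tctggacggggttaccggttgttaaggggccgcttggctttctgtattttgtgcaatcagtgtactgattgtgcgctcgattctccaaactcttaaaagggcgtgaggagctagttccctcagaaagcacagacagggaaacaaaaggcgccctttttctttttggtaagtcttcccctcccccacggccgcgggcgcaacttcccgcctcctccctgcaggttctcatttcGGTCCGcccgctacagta

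The sequences of H2ac13 and H2bc13 are largely the same stretch of DNA read from its opposite strands. Their 300-base windows, from 250 bases before to 50 after each start, had 272 bases in common. Head-to-head neighbours, with no other gene listed between them, were found 12 times among the histone genes whose strand the promoter table gives. Of these, 10 were a gene for H2A beside a gene for H2B, and all 10 shared between 220 and 279 bases of their windows. The others, H4c6 with H1f3 and H2ac19 with H2ac18, shared none. How often other genes lie head to head or share bases in this way was not counted.

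Promoter sequences of the histone classes differed in the motifs they held. The table had 60 promoters for 59 of the 65 genes, and 32851 promoters in all. Motifs were counted from 250 bases before to 50 after each start, a longer stretch than the sequences printed above. CCAAT, which the factor NF-Y binds, was present in all 6 H1, 17 H2A, 16 H2B and 10 H3 promoters but in 3 of 11 H4 promoters, against 37.4% of all promoters. GGTCCG was present in 10 of 11 H4 promoters and in 2 of the other 49 histone promoters, against 8.25% of all promoters. AAACACA was in 5 of 6 H1, 2 of 17 H2A and 2 of 16 H2B promoters and in no H3 or H4 promoter, and 7.18% of all promoters held it. In the 250 bases before the start alone, CCAAT was in 8 of 10 H3 promoters and in 33.9% of all promoters. GGTCCG was there in 8 of 11 H4 promoters and in 6.72% of all promoters. The H1 count of AAACACA was unchanged.

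TATAAA was in 34 of the 60 histone promoters and in 13.6% of all promoters. Before the start alone it was in 28 of the 60 and in 12.4% of all promoters. The octamer ATTTGCAT was in 7 of 16 H2B and 6 of 17 H2A promoters and in no H1, H3 or H4 promoter, with 1.74% over all promoters. The E2F-type sequence TTTCGCGC was in 4 H2B and 5 H2A promoters (0.323% of all promoters), and its variant TTTGGCGC in none (0.514%). H2A and H2B promoters that share bases are counted under both genes, so these counts are not independent. None of the motifs contains another, and a match says only that the letters are present. The histone promoters had a median G+C content of 45.3%, against 52.7% over all promoters, and a median observed-to-expected CpG ratio of 0.748, against 0.384.

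**Figure D1:**
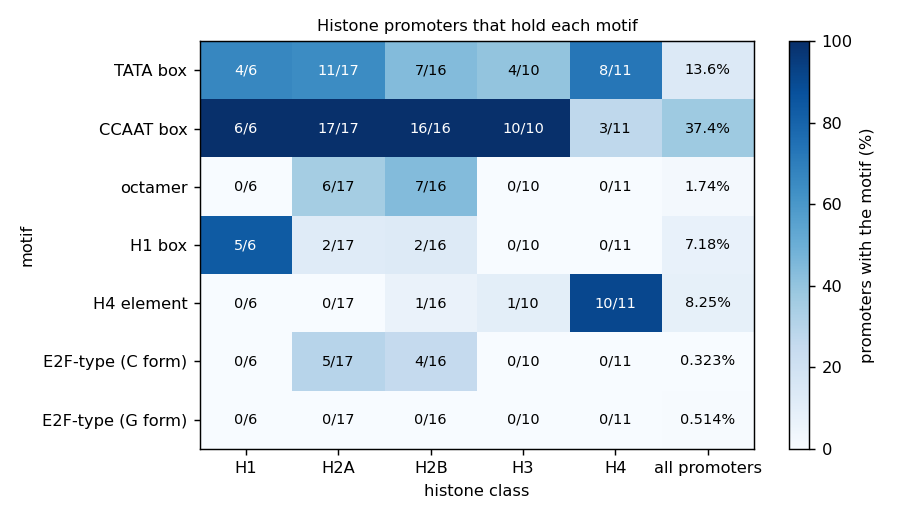
Number of histone promoters of each class (columns) that hold each motif (rows) on either strand, out of the promoters of that class, with the percentage over all 32851 promoters in the last column. Matches were counted from 250 bases before to 50 after the start. Shading gives the percentage; CCAAT fills every class but H4, where GGTCCG is found in 10 of 11.

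Some histone promoters hold an exact stretch of another histone promoter. An exact stretch of at least 50 bases was shared with a promoter elsewhere in the clusters by 12 of the 60 promoters. They comprised 8 in the first Hist1 run, such as H4c11 with H4c12 and H4c17 with H4c18, and 4 in the Hist2 run, namely H3c14 with H3c15 and H2ac18 with H2ac19. The promoters of H2bc23 and H4bc24 were identical over all 300 bases, and no promoter of the second Hist1 run shared such a stretch. The search was run among histone promoters alone, so how common such sharing is among all promoters is not known. How reads that match several copies were handled is not given in the sources used here, and its part in the number or width of sites was not tested.

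Accessible sites were several times denser in both Hist1 windows than in the 500 kb on either side. Hist1 window 1 had 12.4 sites per 100 kb (9.10 to 16.6), or 46 in 370 kb. Its upstream flank had 4.8 (3.08 to 7.14), and its downstream flank had none in 500 kb, with a Poisson upper limit of 0.738 per 100 kb. Against the flanks together the density was 5.18 times higher (3.10 to 8.87), although the ratio was 2.59 (1.55 to 4.44) against the upstream flank alone. Against the empty one the exact lower limit of the ratio was 16.2, and a floor of 3 sites there gave 20.7. The last site of the window ended at position 22143487, and the next site began at 23376991, 1234 kb further on. In gene order 147 genes lie between the first and second Hist1 runs, of which 75 are of the Vmn1r family and 46 are tRNA genes. Whether any of these genes lie in the stretch without sites was not tested.

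Hist1 window 2 was denser still, with 18.7 sites per 100 kb (13.5 to 25.2), or 43 in 230 kb. Its upstream flank had 4 sites, or 0.8 per 100 kb (0.218 to 2.05), and its downstream flank 26 sites, or 5.2 per 100 kb (3.40 to 7.62). The density was 6.23 times that of the flanks together (3.82 to 10.3), 23.4 times that of the upstream flank (8.49 to 89.6) and 3.60 times that of the downstream flank (2.16 to 6.10). Much of the upstream flank lies in the stretch without sites that follows Hist1 window 1 and runs up to position 23376991. That stretch also empties the downstream flank of Hist1 window 1, so the contrasts of both windows with it are not independent. Whether the downstream edge leaves histone genes of the second run outside the window was not checked.

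The Hist2 window had the highest density of the 3, with 24 sites in 100 kb (15.4 to 35.7), but its surroundings were dense as well. The flanks held 14.2 sites per 100 kb upstream (11.1 to 17.9) and 14.4 downstream (11.3 to 18.1). The ratio to both was 1.68 (1.04 to 2.60), and with 250-kb flanks it was 1.52 (0.92 to 2.43), an interval that includes 1. The intervals of the 3 windows overlapped each other.

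The share of bases inside sites gave the same order of window over flank. Sites covered 16.2% of Hist1 window 1, against 3.90% of its upstream flank and 0% of its downstream flank. They covered 26.1% of Hist1 window 2, against 0.853% upstream and 5.77% downstream. In the Hist2 window they covered 24.5%, against 13.1% on either side. The covered share was 8.28 times that of both flanks together in Hist1 window 1, 7.87 times in Hist1 window 2 and 1.87 times in the Hist2 window.

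**Figure D2:**
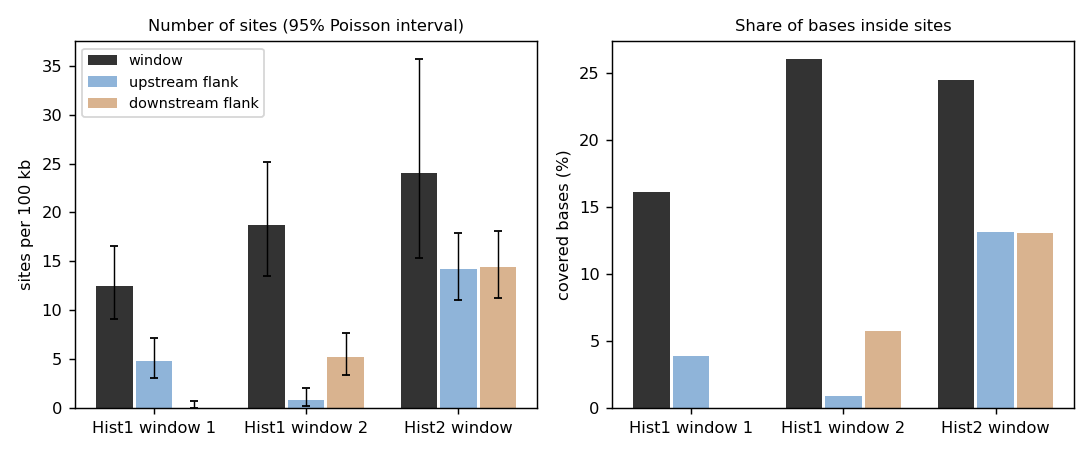
Sites per 100 kb with 95% Poisson intervals (left) and share of bases inside sites in percent (right) for each histone window and the 500 kb upstream and downstream of it. The Hist1 windows rise far above flanks of at most 5.2 sites per 100 kb, and the Hist2 window stands among flanks of 14.2 and 14.4.

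Few parts of the autosomes were as covered as these clusters. The autosomes were laid out in consecutive tiles of the length of each window, leaving out tiles that overlapped it. Of 6681 tiles of 370 kb, 1.27% held as many sites as Hist1 window 1 and 0.150% were covered as much. For Hist1 window 2 these shares were 0.177% and 0.00% of 10738 tiles of 230 kb, so that no tile was covered as much. For the Hist2 window they were 0.0850% and 0.0526% of 24692 tiles of 100 kb. Many tiles held no site at all: 2688 of those of 370 kb, 5053 of those of 230 kb and 14280 of those of 100 kb. The windows were placed on gene clusters, whereas the tiles follow a fixed grid that can split a dense region.

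Coverage was high even among tiles with many sites, most of all in Hist1 window 2. The 19 tiles with 43 or more sites in 230 kb were covered to a median of 17.8%, and the window to 26.1%. The 85 tiles that matched Hist1 window 1 in number had a median of 12%, against 16.2% in the window, and 9 of them were covered as much. The 21 tiles that matched the Hist2 window had a median of 22.4%, close to its 24.5%, and 4 were covered as much.

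Wide sites were common in the histone clusters, more so than in the list as a whole. Of the 113 sites, 38 were wider than 1500 bp (33.6%, 25 to 43.1%), a width passed by 11.4% of the whole list. The flanks had 33 such sites of 197 (16.8%, 11.8 to 22.7%). Among the windows the share was 15 of 46 in Hist1 window 1 (32.6%, 19.5 to 48.0%), 17 of 43 in Hist1 window 2 (39.5%, 25 to 55.6%) and 6 of 24 in the Hist2 window (25%, 9.77 to 46.7%). The interval for the Hist2 window includes the share of the whole list. Around Hist1 window 1 the flank sites, all upstream, had 1 wide site of 24 (4.17%, 0.105 to 21.1%). Around Hist1 window 2 they had 7 of 30 (23.3%, 9.93 to 42.3%) and around the Hist2 window 25 of 143 (17.5%, 11.6 to 24.7%). The interval of each window overlapped that of its own flanks.

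Very wide sites, over 2500 bp, were 15 of the 113 (13.3%, 7.62 to 21.0%), against 1.61% of the whole list and 11 of 197 flank sites (5.58%, 2.82 to 9.77%). They numbered 7 in Hist1 window 1, 5 in Hist1 window 2 and 3 in the Hist2 window. Wide sites made up 64.6% of the site bases in the windows and 42.8% in the flanks. Narrow sites, under 400 bp, were 21 of the 113 (18.6%, 11.9 to 27.0%), against 30.5% of the whole list. That deficit lay in the Hist1 windows, with 14 of 89 (15.7%, 8.88 to 25%). The flanks of the Hist1 windows had 13 of 54 (24.1%, 13.5 to 37.6%), and the intervals of windows and flanks overlap. The Hist2 window had 7 of 24 (29.2%, 12.6 to 51.1%).

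Median width was 986 bp in Hist1 window 1 (581 to 1404), 1262 bp in Hist1 window 2 (844 to 1827) and 501 bp in the Hist2 window (328 to 1208). Over the whole list it was 663 bp (658 to 668). Hist1 window 2 alone had an interval above that value, and the intervals of the other windows include it. Flank medians were 883 bp around Hist1 window 1 (546 to 999) and 619.5 bp around Hist1 window 2 (402 to 973). Around the Hist2 window the flank median was 650 bp (501 to 802), above that of the window. Each window's interval overlapped that of its own flanks. The upper quartile of the Hist2 window lay at 1344 bp, and that of the whole list at 1063 bp.

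**Figure D3:**
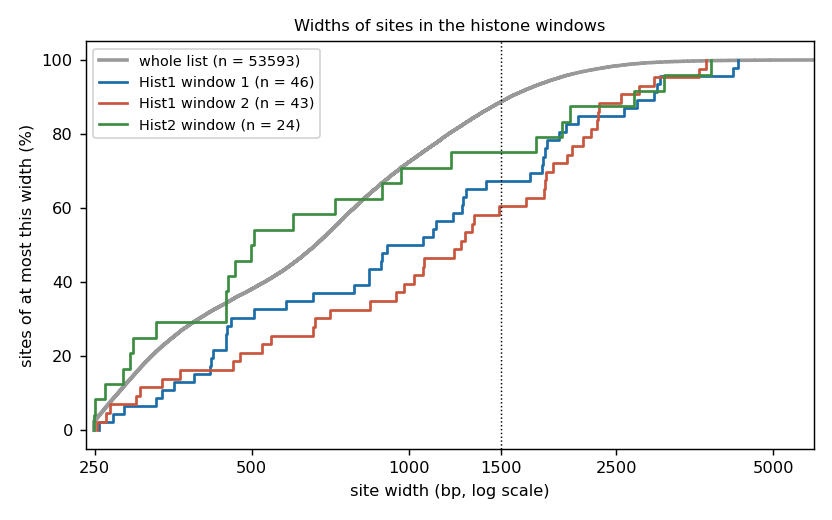
Cumulative share of sites (vertical axis, percent) up to each width (horizontal axis, bp, log scale) in the 3 histone windows and the whole list, with a dotted line at 1500 bp. At that line 32.6%, 39.5% and 25% of the sites of Hist1 window 1, Hist1 window 2 and the Hist2 window are still to come, against 11.4% of the list.

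The wide share was also compared among sites with a near neighbour, a loose measure of density. Sites with another site within 5 kb were 65.9% of the list and 88.5% of the sites in the windows (100 of 113). Among such sites the wide share was 33% in the windows (23.9 to 43.1%) and 10.7% in the whole list. By window it was 34.1% in Hist1 window 1 (20.1 to 50.6%), 38.5% in Hist1 window 2 (23.4 to 55.4%) and 20% in the Hist2 window (5.73 to 43.7%), where the interval includes the share of the list.

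The 5 widest sites of Hist1 window 1 lay toward its ends. They covered 4288 bp (chr13:22131889-22136176), 4187 bp (chr13:21806776-21810962), 3033 bp (chr13:21843944-21846976), 2999 bp (chr13:22125952-22128950) and 2957 bp (chr13:22111782-22114738). The widest ranked 59th of the 53593 sites by width and the next 67th. The narrowest sites, of 255 bp (chr13:22003274-22003528), 271 bp (chr13:22093992-22094262) and 284 bp (chr13:21974815-21975098), were near the lower limit of the list, 249 bp.

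Hist1 window 1 fell into 3 parts. In its first 100 kb, 9 of 11 sites were wide (81.8%, 48.2 to 97.7%) and the median width was 2005 bp. In the middle 200 kb, 0 of 21 sites were wide (Clopper-Pearson upper limit 16.1%), the widest was 1404 bp and the median was 654 bp (418 to 908). In the last 70 kb, 6 of 14 sites were wide (42.9%, 17.7 to 71.1%) with a median of 1200 bp. The middle had about as many sites per 100 kb as the first part, 10.5 against 11, yet sites covered 7.88% of it against 22.3% of the first and 31.0% of the last part. These bounds were drawn after the widths were seen. In gene order the first Hist1 run likewise has 19 histone genes, then the 31 tRNA genes with Zfp184, Pom121l2 and Prss16, then 5 histone genes, but whether the wide sites lie at histone genes and the middle sites at tRNA genes was not tested.

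The 50-kb steps of Hist1 window 1 differed in how they compared with the autosomes, and its middle was not uniform. Its first step had 5 sites and 20.5% covered, more than 99.8% of the 1219 autosomal tiles of 50 kb with 5 sites. Its second had 6 sites and 24.1%, more than all 830 tiles with 6. Of the middle steps, the third had 2 sites and 3.75%, more than 69.9% of 3419 tiles, and the sixth had 4 sites and 9.60%, more than 91.4% of 1715 tiles. The fourth, also with 5 sites, had 5.97%, more than 24.3% of the same 1219 tiles. The fifth had 10 sites and 12.2%, more than 10.4% of 182 tiles.

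Wide sites were spread along Hist1 window 2. Its 5 widest covered 3715 bp (chr13:23624282-23627996), 3601 bp (chr13:23527361-23530961), 2950 bp (chr13:23711970-23714919), 2771 bp (chr13:23676139-23678909) and 2555 bp (chr13:23664340-23666894). The number of wide sites in its 50-kb steps was 4, 1, 5 and 6, and the remaining 30 kb had 1. The third step had 12 sites and 37.2% covered, more than all 80 autosomal tiles with 12 sites, whose median was 19.4%. The fourth had 8 sites and 28.7%, against a median of 12.6% in 431 tiles. The second, with 4 of its 9 sites narrow, had 14.6% and was near the median of 15.1%. The narrowest sites covered 253 bp (chr13:23728652-23728904), 263 bp (chr13:23580806-23581068) and 267 bp (chr13:23580472-23580738).

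**Figure D4:**
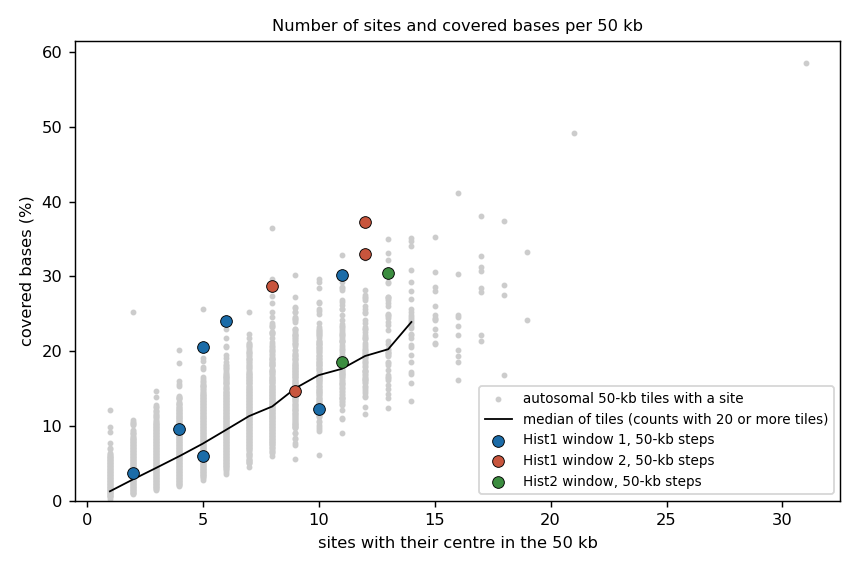
Number of sites (horizontal axis) and covered bases in percent (vertical axis) in the whole 50-kb steps of each histone window, over the autosomal 50-kb tiles that hold a site (grey) and their median (line). Of the 13 steps, 8 are covered more than 90% of the tiles with the same number of sites, and among the middle steps of Hist1 window 1 those with 5 and 10 sites lie below the line and those with 2 and 4 above it.

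In the Hist2 window all 6 wide sites lay between positions 96022574 and 96082824. The widest covered 3797 bp (chr3:96022574-96026370), followed by sites of 3091 bp (chr3:96065759-96068849), 2700 bp (chr3:96071638-96074337), 2035 bp (chr3:96080790-96082824) and 1968 bp (chr3:96040630-96042597). The sixth wide site, named for completeness after its width was seen, covered 1751 bp (chr3:96047919-96049669). Its first 50 kb had 13 sites and 30.5% covered, with 1 narrow site. Its last 50 kb had 11 sites and 18.5% covered, with 6 narrow ones, of which sites of 250 bp (chr3:96108517-96108766) and 261 bp (chr3:96115072-96115332) were among the narrowest of the window. The narrowest, at chr3:96034653-96034901, had the minimum width of the list, 249 bp.

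**Figure D5:**
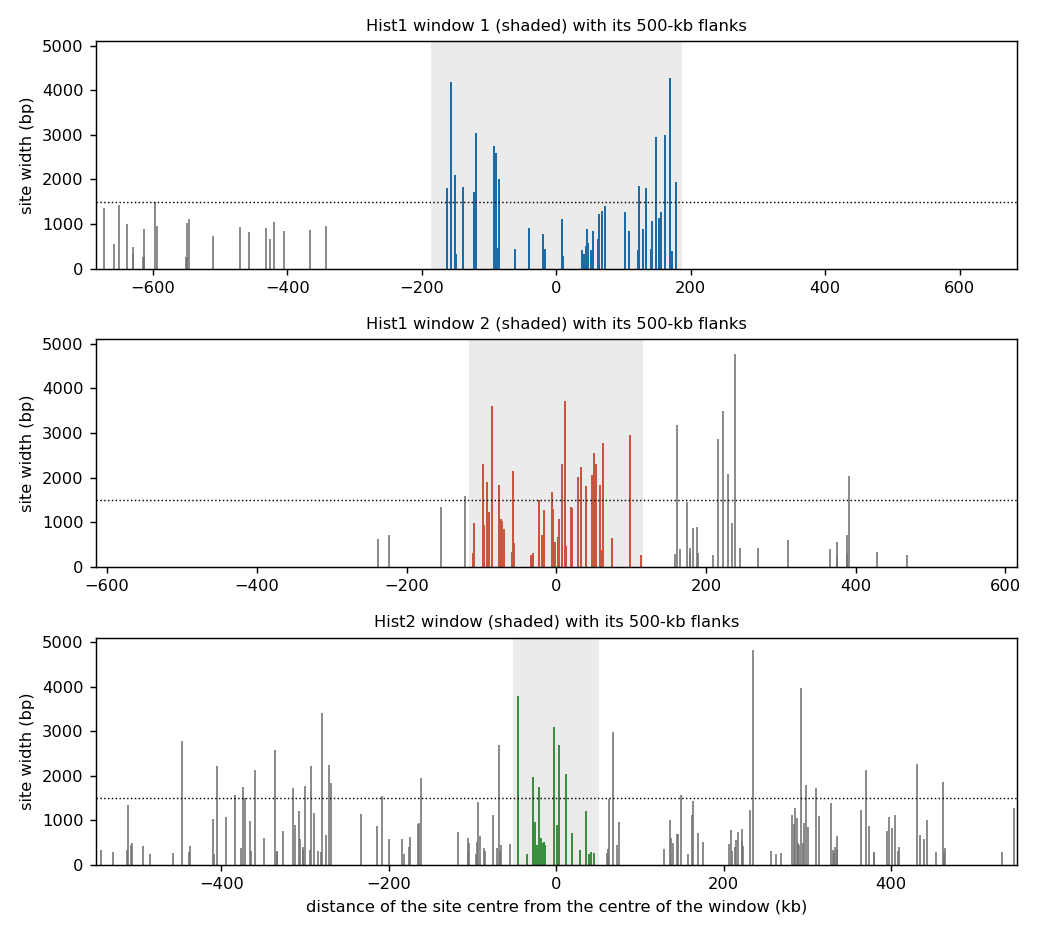
Each vertical line is a site, placed by the distance of its centre from the centre of the window (horizontal axis, kb) and as tall as the site is wide (vertical axis, bp); the windows are shaded and the dotted line marks 1500 bp. The sites over the line stand at both ends of Hist1 window 1 and along Hist1 window 2, and the flank downstream of Hist1 window 1 is empty.

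Sites inside the windows followed each other closely. The median gap from the end of a site to the start of the next was 2.94 kb in Hist1 window 1 (1.40 to 4.30), 1.85 kb in Hist1 window 2 (0.581 to 3.01) and 1.61 kb in the Hist2 window (0.611 to 5.32), against 7.05 kb over the whole list. In the flanks it was 10.2 kb around Hist1 window 1 (2.68 to 14.4), 4.07 kb around Hist1 window 2 (2.85 to 13) and 2.62 kb around the Hist2 window (1.83 to 3.60). The intervals of window and flank overlapped in all 3 comparisons. Of the 110 gaps inside the windows 77 were shorter than 5 kb (70%), against 43.5% of all gaps in the list and 116 of 192 in the flanks (60.4%).

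Many sites stood almost against their neighbour. Gaps shorter than 500 bp were 30 of the 110, against 38 of 192 in the flanks and 17.0% of all gaps. No interval was computed for these shares. There were 10 of 45 in Hist1 window 1, 14 of 42 in Hist1 window 2 and 6 of 23 in the Hist2 window. Their own flanks, in the same order, had 3 of 23, 4 of 28 and 31 of 141. The shortest gap in Hist1 window 1, 53 bp, parted its widest site from one of 387 bp (chr13:22136230-22136616). In the Hist2 window a gap of 53 bp parted sites of 447 bp (chr3:96052174-96052620) and 498 bp (chr3:96052674-96053171). In Hist1 window 2 the shortest was 59 bp, between sites of 1071 bp (chr13:23540735-23541805) and 1023 bp (chr13:23541865-23542887). The shortest gap of the whole list was 52 bp.

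The longest gaps were 28.1 kb in Hist1 window 1, between sites of 1404 bp (chr13:22036339-22037742) and 1266 bp (chr13:22065867-22067132), and 21.6 kb in Hist1 window 2, between a site of 655 bp (chr13:23689709-23690363) and the very wide one of 2950 bp. In the Hist2 window the longest was 9.41 kb, after a site of 450 bp (chr3:96055897-96056346) and before that of 3091 bp. No site crossed an edge of a window.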

How the data were processed

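Per the submitters' processing notes, the authors used BWA 0.6.2 and SAMtools with genome build mm9. How sites were called, filtered or set against the input is not given in the sources used here. What the authors deposited is a list with 3 columns and no header (chromosome, start, end), and it holds no other values. Its starts count from 0, and positions here count from 1. Sites were counted in each window and its 500-kb flanks, with covered bases clipped to the window. Ratios of densities have exact conditional binomial intervals, and a flank without sites was given a floor of 3. Gaps run between consecutive sites inside a window. Tiles start at the first base of each autosome and hold the sites centred in them. Promoters and gene order came from RefSeq tables of GRCm38.p6, matched by old symbol.

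Genes were named by class and gene order; in each window the 5 widest and 3 narrowest sites and those at the longest and shortest gap and at the edges were named. The windows and lists were chosen with earlier results of these data known. The width classes, 50-kb steps and 5-kb neighbourhood were chosen after seeing data. Intervals were computed with scipy 1.17.1 under Python 3.11.15, tables with pandas 2.3.3 and numpy 2.4.6, and figures with matplotlib 3.10.9; the code was tested on simulated data.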

Additional observations from a re-analysis of the deposited data

How the results depend on the processing

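Of 57 recomputed values, 43 stayed within the counting interval of the value reported (for promoter counts, a factor of 1.5). The other 14 moved by more. For covered shares, all of which stayed, the interval was scaled from that of the number of sites. It is not an interval for covered bases, which are not independent draws. A change of direction was looked for in the density ratios alone, and none of them crossed 1. Since no site crossed a window edge, keeping only sites wholly inside a window could not move the median width or gap. Choice of flank moved the density ratio most. For Hist1 window 1 it was 10.4 with 250-kb flanks, 2.59 with the upstream flank alone and 20.7 with a floor of 3 sites in the empty downstream flank, where the exact lower limit was 16.2. For Hist1 window 2 it was 23.4 with the upstream and 3.60 with the downstream flank alone. For the Hist2 window the interval, 1.04 to 2.60 as reported, took in 1 under 3 settings: 1.45 (0.666 to 2.83) with sites above the list median, 1.58 (0.850 to 2.74) with neighbours joined and 1.52 (0.92 to 2.43) with 250-kb flanks. The median width over all 3 windows was 980 bp, and 1803 bp both for the sites above the list median and when neighbours within 1 kb were joined. The median gap of 2.23 kb became 3.57 and 4.20 kb under these settings, which remove or join sites by construction.

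Settings for wide sites were added after seeing the data. The wide share over that of the whole list was 2.95 over all windows, 1.80 at a limit of 1000 bp and 5.19 at 2000 bp. For Hist1 window 2 these were 3.47, 2.19 and 6.54, and for Hist1 window 1 2.86 and, at 2000 bp, 4.59. In the Hist2 window it was 2.20 (0.86 to 4.10) as reported and 1.06 (0.457 to 1.85) at 1000 bp, with intervals that include 1. It was 3.91 (1.11 to 8.76) at 2000 bp and 2.53 (1.36 to 3.525) with neighbours joined. No stricter threshold by signal could be tried, since the list has no scores. No paired analysis was possible because 1 library was analysed.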

Other observations

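Sites went on beyond the downstream edge of Hist1 window 2, after a gap of 45.1 kb. This stretch was chosen after seeing the data, up to the first gap of over 50 kb (positions 23730001 to 23925445 of chromosome 13). It held 18 sites, or 9.21 per 100 kb (5.46 to 14.6), and 12.3% of it was covered. Of these sites 5 were wide and 4 over 2500 bp, of 4771 bp (chr13:23851769-23856539), 3505 bp (chr13:23835878-23839382), 3187 bp (chr13:23774564-23777750) and 2867 bp (chr13:23829847-23832713). All 4 very wide sites of the downstream flank lay here. With the window extended over it, the density ratio to the flanks was 7.97 (4.65 to 14.3) and the covered share 19.7%. The extended edge was set at a gap of over 50 kb, so the new downstream flank began without sites by construction. This ratio therefore depends on how the edge was chosen. The second Hist1 run closes in gene order with H1f2, H3c3, H2bc3, H2ac4, H3c2, H4c2, H4c1, H3c1 and H1f1, and whether these genes lie in the stretch was not tested.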
